A study of Drosophila melanogaster with 40 samples.

Results

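Drosophila S2 cells were followed through consecutive 24 h cycles in constant darkness at 25°C, and the RNA of the second cycle was set against that of the first at matched hours. The first cycle comprised the 8 libraries from CT24 to CT45 and the second cycle the 8 libraries from CT48 to CT69, sampled every 3 h, so that each library of one cycle had a partner taken 24 h later (CT24 with CT48, CT27 with CT51 and so on). CT is the time in hours since the last medium change. The members of the comparison were the loci with at least 0.9 FPKM in each of these 16 libraries, of 40 in the whole series. This gave 6949 of the 15863 loci of the 25°C table. FPKM counts sequenced fragments relative to the length of the transcript and to the size of the library. The lowest value of a member lay just inside the threshold for kon (0.904 FPKM), M7BP (0.905 FPKM) and hng3 (0.918 FPKM), and just outside it for CG8620 and lncRNA:CR45417 (0.898 FPKM each) and nAChRbeta2 (0.897 FPKM).

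S2 is a cell line derived from late Drosophila embryos with features of macrophage-like blood cells. Both groups came from the same culture conditions. The cells had been entrained for a week or more by temperature cycles alternating between 12 h at 23°C and 12 h at 28°C before the temperature was held at 25°C. RNA carrying a poly(A) tail was sequenced from a single library per time point. P-values therefore measured the spread between hours and not between cultures, and neighbouring time points are not independent samples. Time since the medium change, culture age and cycle number rise together in this design and cannot be told apart.

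A circadian rhythm returns to the same level at the same hour of each day, whereas a drift moves a transcript in one direction from day to day. In the fly clock, CLK and CYC activate per and tim, whose products repress their own transcription, while vri and Pdp1 act on Clk in a second loop. In a batch culture, cells also consume glucose and amino acids and release lactate, and several pathways are known to read this supply. Among them are TOR signalling, which promotes ribosome production when amino acids are plentiful, the transcription factor ATF4 (crc in flies), induced on amino acid shortage, and the hypoxia factor Sima, which induces lactate dehydrogenase and glycolytic enzymes.

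The identity of the cells was checked against marker genes. Of 11 hemocyte markers, 6 passed the threshold, among them the GATA factor srp (79.3 to 94.0 FPKM over the 16 libraries, at a locus joined with a lncRNA), the scavenger receptor crq and the type IV collagen chains vkg and Col4a1. Hml, NimC1, Sr-CI, He and eater did not pass it. The summed level of the 11 markers ranged from 850.1 to 982 FPKM in the first cycle and from 856 to 1020 FPKM in the second, and 1 marker rose (crq, log2 change 0.33) and 1 fell (ush, log2 change −0.17, at a locus joined with MED15). Of 18 markers of crystal cells, lamellocytes, neurons, muscle, fat body, germline, gonad and glia, only elav and Mef2 passed, and the other 16 stayed at or below 0.718 FPKM. elav rose by 0.18 (adjusted P-value 0.0387) and Mef2 did not pass the test (−0.10). The summed level of the 18 was 14.3 to 17.2 FPKM in the first cycle and 13.9 to 17.3 FPKM in the second. As these are bulk samples, fewer cells of a type and less RNA per cell cannot be told apart.

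Depth relative to the median library, estimated roughly from loci with few reads, ranged from 0.573 (CT39) to 1.42 in the first cycle and from 0.744 to 1.54 (CT48) in the second. The sum of FPKM was 978685 to 1162420 and was highest in CT60. Between neighbouring libraries the median absolute log2 step was smallest from CT33 to CT36 (0.05) and largest from CT51 to CT54 (0.11). At that largest step the median glycolysis gene dropped by 0.47 and the median glycogen and trehalose gene by 0.38, whereas the median amino acid transporter moved by 0.32 and the median oxidative phosphorylation gene by 0.29. From CT66 to CT69 the glycolysis and glycogen lists moved the opposite way, by 0.49 each. From CT57 to CT60 the median cytosolic ribosomal protein gene moved by 0.21 and the median oxidative phosphorylation gene by 0.20. The second cycle was thus not uniform, and values within it are given below by library where they differ.

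The paired change is the mean difference of log2(FPKM + 1) between the second and the first cycle over the 8 pairs. It was tested with limma with the hour as a block, and P-values were adjusted over all 6949 loci. Of these, 1555 were higher in the second cycle (22.4% of the loci tested) and 1892 were lower (27.2%), with an adjusted P-value under 0.05. All 8 pairs shared the direction for 984 of the rises and 1239 of the falls. Most changes were small. The median absolute change over all loci was 0.13 (quartiles 0.06 and 0.24), with a median standard error (SE) of 0.05. The median rise was 0.25 (1.19-fold) and the median fall −0.22 (0.858-fold). Large changes went mainly upwards: 47 rises but 0 falls exceeded 1 on the log2 scale, and 230 rises and 58 falls exceeded 0.5. The ranges of the cycles did not overlap for 308 of the loci that rose and 373 of those that fell. The median change over all loci was −0.01.

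**Figure D1:**
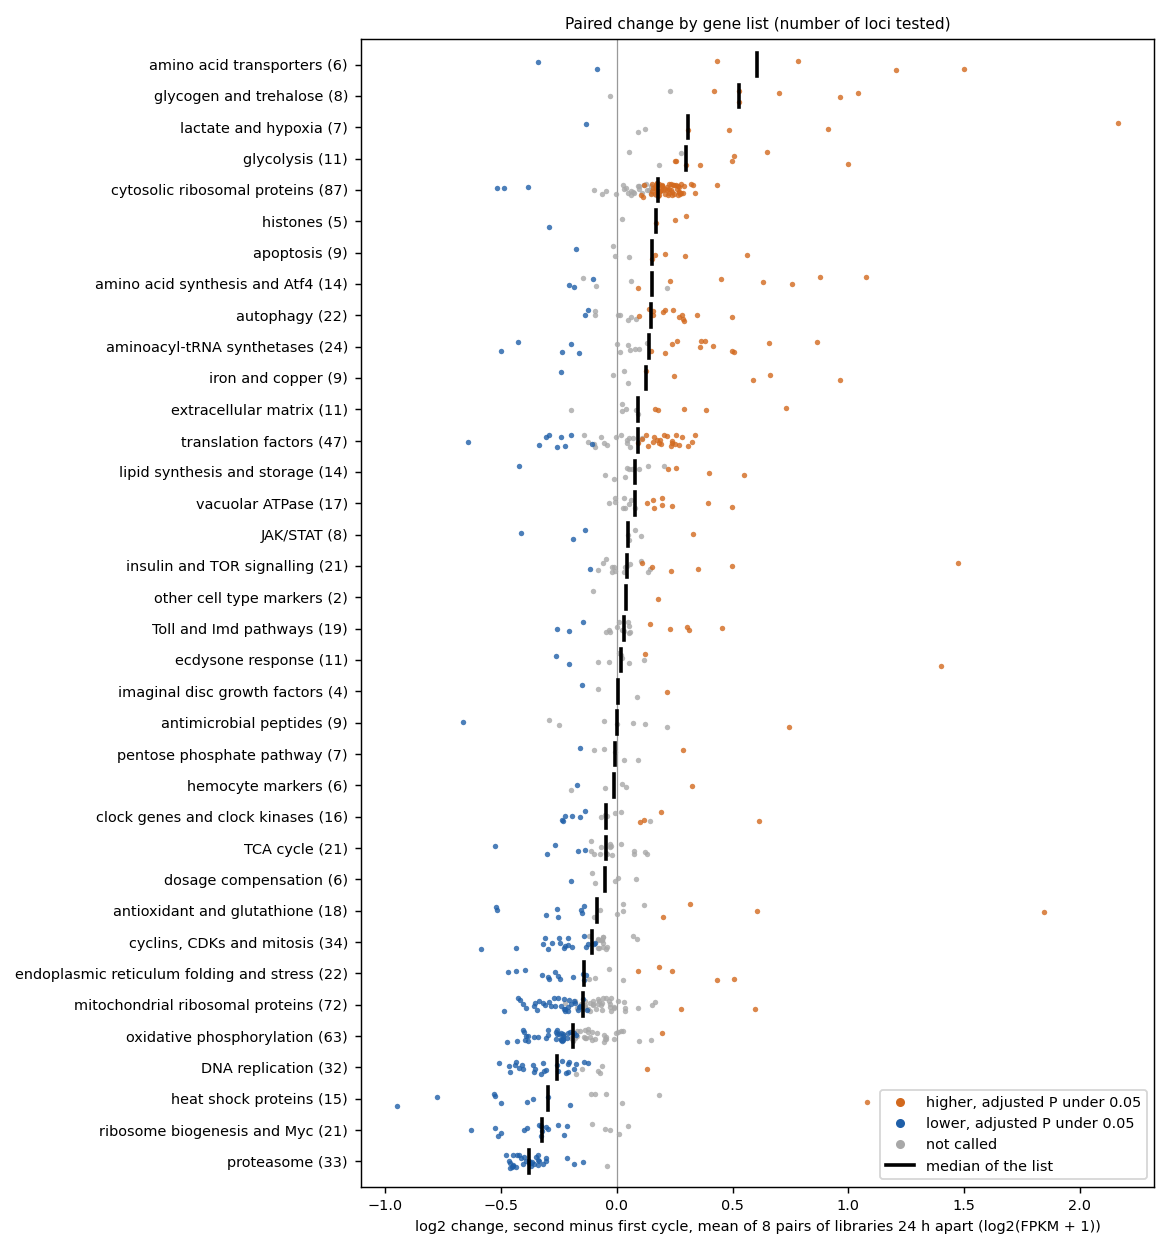
Paired change of the loci in each gene list, as the difference of log2(FPKM + 1) between the second and the first cycle. Each point is a locus, coloured by its call, and the black bar is the list's median. Proteasome genes lie below 0 throughout (median −0.38, 32 of 33 called lower), while amino acid transporters (0.61), glycogen and trehalose genes (0.53), lactate and hypoxia genes (0.31) and glycolysis genes (0.30) have the highest medians, beside −0.01 for all loci tested.

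The 10 largest rises were those of Pepck1, the MFS3 locus, Ldh, Dgp-1, CG9521, GstE9, Sirup, CG30339, lncRNA:CR44138 and Sgsh. Pepck1, a phosphoenolpyruvate carboxykinase of gluconeogenesis (dm3, chr2R:14424272-14426921), ranged from 4.46 to 17.1 FPKM in the first cycle (median 10.2) and from 16.0 to 126 FPKM in the second (median 77.4). The cycles overlapped only through CT48, since Pepck1 stood at 16.0 FPKM there and 21.2 FPKM at CT51 before stepping to 70.5 FPKM at CT54. Its log2 change was 2.74 ± 0.34 (SE, 8 pairs; adjusted P-value 0.000139). The third day (CT72 to CT81, 4 libraries outside the comparison) had a mean of 95.5 FPKM.

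Ldh, the lactate dehydrogenase that regenerates NAD as it reduces pyruvate to lactate (chr3L:6252205-6255794), climbed from 5.43 FPKM at CT24 to 263 FPKM at CT45 (median 70.9). In the second cycle it reached 415 FPKM at CT51, stood at 177 FPKM at CT54 and 169.7 FPKM at CT63, and reached 840.2 FPKM at CT69 (median 212). The ranges overlapped, and the log2 change was 2.17 ± 0.53 (adjusted P-value 0.00716). On the third day the mean was 1131 FPKM. Sirup, an assembly factor of mitochondrial succinate dehydrogenase (chr2L:7998869-8004286), had the same kind of profile: 102 to 2369 FPKM in the first cycle (median 764), then 3342 FPKM at CT51, 1091 FPKM at CT54 and 5144 FPKM at CT69 (median 1489). Its log2 change was 1.81 ± 0.52 (adjusted P-value 0.0161).

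The locus of the transporter gene MFS3, joined with lncRNA:CR45717 (chr2L:1142869-1147395), ranged from 1.69 to 14.5 FPKM in the first cycle (median 3.99) and from 19.2 to 171 FPKM in the second (median 25.6). Its lowest second-cycle value, at CT54, lay above every value of the first cycle, and the log2 change was 2.59 ± 0.21 (adjusted P-value 1.46e-05). CG9521, of the glucose-methanol-choline oxidoreductase family, went from 2.16 to 27.6 FPKM (median 9.83) to 17.9 to 113 FPKM (median 29.9), with overlap and a log2 change of 1.86 ± 0.32 (adjusted P-value 0.000972).

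The other genes among the 10 largest rises increased, rather than dropped, from CT51 to CT54. Dgp-1, which encodes a GTP-binding protein related to translation elongation factors, moved from 19.6 to 77.2 FPKM (median 44.5) to 93.0 to 219 FPKM (median 186), a log2 change of 1.90 ± 0.16 (adjusted P-value 1.93e-05). GstE9, a glutathione S-transferase, moved from 13.8 to 57.1 FPKM (median 32.8) to 58.5 to 144 FPKM (median 124), a log2 change of 1.85 ± 0.22 (adjusted P-value 0.000101). For both genes the cycles did not overlap. Sgsh, a lysosomal sulfohydrolase, went from a median of 10.6 FPKM (4.78 to 20.0) to 36.2 FPKM (19.0 to 43.7), CG30339 from 19.0 FPKM (8.38 to 35.7) to 70.2 FPKM (33.0 to 83.7), and lncRNA:CR44138 from 2.80 FPKM (1.77 to 4.64) to 13.2 FPKM (3.90 to 14.7). For these 3 genes the cycles overlapped at their edges, with log2 changes of 1.55 ± 0.17, 1.69 ± 0.17 and 1.60 ± 0.20 and adjusted P-values of 7.54e-05, 5.08e-05 and 0.000137. Being higher in 8 of 8 pairs was a condition of the ranking for all 10 genes.

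**Figure D2:**
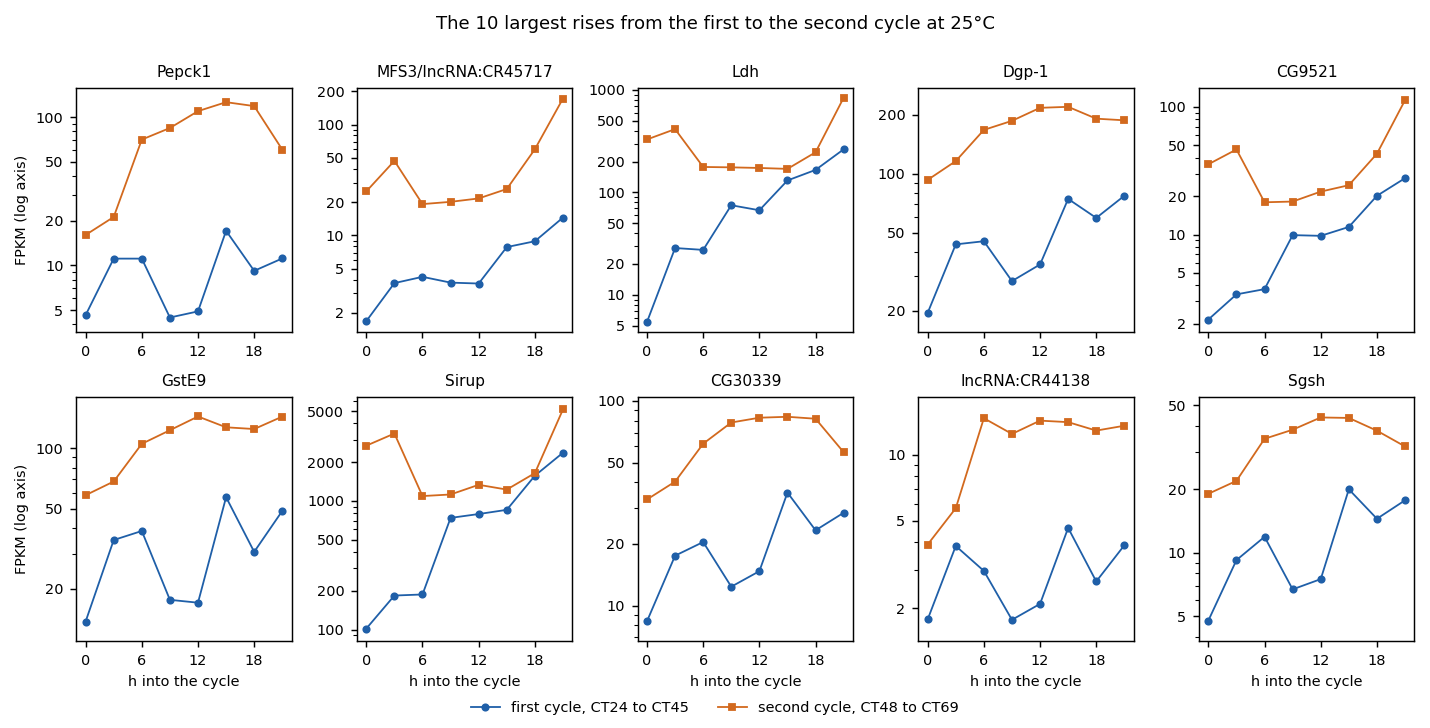
FPKM (log axis) of the genes with the largest rises, by the ranking rule of the text, at each hour of the cycle. Each cycle has 1 line and each library 1 point. Ldh and Sirup drop between CT51 and CT54 and are highest at CT69, whereas Pepck1 steps up at CT54.

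The largest falls by the same rule were smaller. Jheh1, a juvenile hormone epoxide hydrolase (chr2R:14740939-14742592), ranged from 49.0 to 73.9 FPKM in the first cycle (median 69.8) and from 24.6 to 41.1 FPKM in the second (median 35.1). The cycles did not overlap, and the log2 change was −0.91 ± 0.05 (adjusted P-value 3.14e-06). Act42A, a cytoplasmic actin (chr2R:1901415-1903194), declined from 4244 FPKM at CT24 to 3282 FPKM at CT45 and from 2984 FPKM at CT48 to 1789.6 FPKM at CT69 (medians 3853 and 2370.4). Every second-cycle value lay below every first-cycle value, with a log2 change of −0.67 ± 0.05 (adjusted P-value 6.95e-06), and the third-day mean was 1557 FPKM.

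Hsp23, a small heat shock protein (chr3L:9374982-9375865), ranged from 9.65 to 48.8 FPKM (median 21.0) and then from 5.05 to 24.7 FPKM (median 10.2). These ranges overlapped widely because Hsp23 varied within each cycle. It was lower in 8 of 8 pairs, as the ranking required (log2 change −0.95 ± 0.16, adjusted P-value 0.000955). On the third day it stood higher than in either cycle, at a mean of 70.1 FPKM.

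The translation elongation factor subunit eEF1delta fell from a median of 471 FPKM (393 to 583) to 318 FPKM (247 to 354), a log2 change of −0.64 ± 0.04 (adjusted P-value 5.94e-06). Ak3, an adenylate kinase, fell from a median of 15.9 FPKM (10.2 to 23.2) to 8.37 FPKM (7.01 to 9.79), a log2 change of −0.77 ± 0.08 (adjusted P-value 6.04e-05). edin, induced on infection in flies, fell from a median of 13.0 FPKM (11.0 to 24.7) to 8.37 FPKM (6.38 to 10.4), a log2 change of −0.66 ± 0.12 (adjusted P-value 0.00108). None of these 3 genes overlapped between cycles.

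CG16762 (log2 change −0.88, adjusted P-value 0.000184), the locus joining lncRNA:CR44898 and robo2 (−0.80, 1.04e-05), CG42857 (−0.64, 6.41e-06) and an abundant unannotated locus at chr3L:7908537-7908946 (−0.70, 5.65e-06) completed the 10 largest falls. The unannotated locus had a median of 2219 FPKM in the first cycle (1822 to 2435) and 1404 FPKM in the second (993 to 1643). Being lower in 8 of 8 pairs was a condition of this ranking. It left out Hsp26, which was higher in 1 pair but had a log2 change of −0.78. In all of the 10 loci but Hsp23 the cycles did not overlap.

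**Figure D3:**
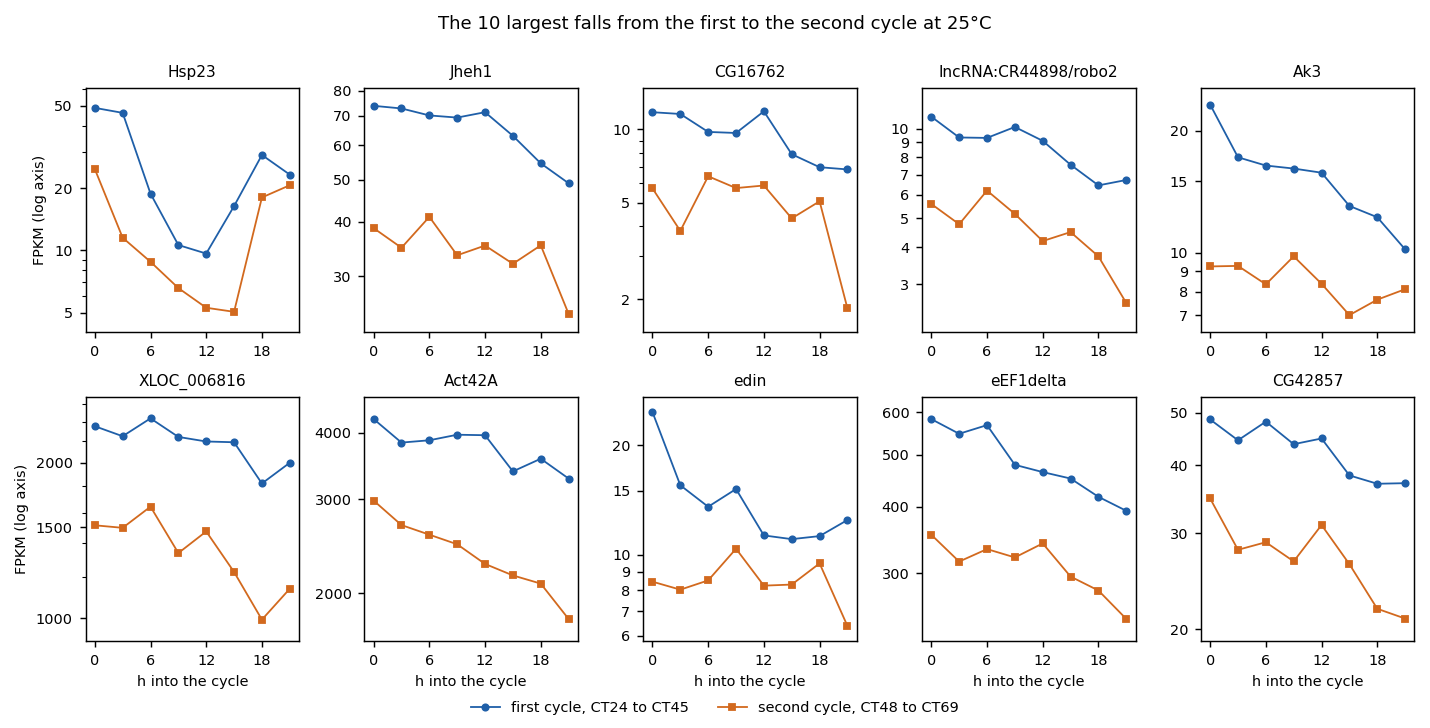
FPKM (log axis) of the genes with the largest falls, by the ranking rule of the text, at each hour of the cycle. Each cycle has 1 line and each library 1 point. Jheh1 and Act42A keep apart at each hour, while the Hsp23 lines are both lowest at 12 h to 15 h.

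Counts in this and the following lists stand beside 22.4% of all loci higher and 27.2% lower. Glycolysis and sugar storage genes rose. Of 11 glycolysis genes tested, 8 were higher and 0 lower (median 0.30). Pfk, the phosphofructokinase that commits glucose to glycolysis, rose from a median of 28.7 FPKM (15.9 to 53.1) to 55.1 FPKM (50.7 to 91.8), with overlap between the cycles (log2 change 1.00 ± 0.17, adjusted P-value 0.00105). Ald1, the aldolase, rose from 214 FPKM (180 to 263) to 299 FPKM (290.1 to 392) without overlap (log2 change 0.50, adjusted P-value 0.00012). Pgi (0.65), Tpi (0.51), Gapdh2 (0.36), Pgk (0.30), PyK (0.26) and Eno (0.25) also rose, while Pglym78 (0.28, adjusted P-value 0.0575), Gapdh1 (0.18) and Hex-A (0.05) did not pass. The rise was uneven over the day: the median pair difference of the list was 0.72 at CT24 to CT48, 0.63 at CT27 to CT51, 0.02 at CT39 to CT63 and −0.09 at CT42 to CT66. Without the CT24 and CT48 pair, or without the CT27 and CT51 pair, 5 of the 11 genes were called.

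Among 8 genes of glycogen and trehalose metabolism, 6 were higher and 0 lower (median 0.53). Pgm1, the phosphoglucomutase between glycogen and glycolysis, rose from a median of 26.9 FPKM (18.4 to 47.2) to 57.0 FPKM (47.4 to 98.7), where the ranges just failed to touch (log2 change 1.04 ± 0.10, adjusted P-value 3.7e-05). The trehalose transporter Tret1-1 (0.96), the debranching enzyme CG9485 (0.70), the branching enzyme AGBE (0.53), glycogen phosphorylase Glyp (0.53) and glycogen synthase Glys (0.42) rose too. RNA for enzymes of glycogen build-up and of breakdown thus both increased. Of 7 genes of lactate production and the hypoxia response, Ldh, scyl (0.91), sima (0.49) and Vhl (0.31) rose, and tgo, the partner of Sima, fell by 0.13, a call lost in 4 of the 8 fits that left out a pair. scyl, an inhibitor of TOR signalling induced by hypoxia, went from 19.4 to 33.6 FPKM to 36.9 to 63.3 FPKM without overlap.

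Of 63 oxidative phosphorylation genes tested, 31 were lower and 1 higher (Cyt-c-p, 0.19), with a median of −0.19. The call of Cyt-c-p was lost in 5 of the 8 fits that left out a pair. COX7C (−0.47), ATPsynC (−0.43, a locus joined with mir-4949), COX6B (−0.40, joined with CG18809) and ATPsynD (−0.40) changed most. This list depended on the hour: its median pair difference ran from −0.47 at CT27 to CT51 to 0.17 at CT36 to CT60, the pair that held the library with the highest FPKM sum. Without that pair 41 genes were lower, and without the CT24 and CT48 pair 19 were. In the TCA cycle list, 5 of 21 genes were lower, a share below the 27.2% of all loci, and 0 higher (median −0.05). They included the citrate synthase kdn (−0.53), the locus of the fumarases Fum1 and Fum2 (−0.30), the pyruvate carboxylase PCB (−0.27) and muc, a pyruvate dehydrogenase subunit (−0.17). Of 7 pentose phosphate genes, Rpe rose by 0.29 and the transketolase CG8036 fell by 0.16 (median −0.01, or 0.01 after rescaling by the median of ratios).

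The amino acid transporter list had the highest median of any list (0.61), with 4 of 6 genes higher and 2 lower. path, a proton-coupled amino acid transporter, went from 128 to 436 FPKM (median 259) to 482 to 965 FPKM (median 864), a log2 change of 1.50 ± 0.18 (adjusted P-value 0.000101). JhI-21, a light chain of the heteromeric transporters, went from 98.9 to 325 FPKM (median 186) to 351 to 496 FPKM (median 474), a log2 change of 1.21 ± 0.15 (adjusted P-value 0.000143). Neither gene overlapped between cycles. The heavy chain CD98hc (0.78) and mnd (0.43) rose as well, whereas gb (−0.34) and kcc (−0.09) fell. Of these, kcc encodes a potassium-chloride cotransporter, not an amino acid transporter, and is counted in each median given for this list. The call of kcc was lost in 7 of the 8 fits that left out a pair.

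Of 14 genes of amino acid synthesis and the ATF4 response, 7 were higher and 3 lower (median 0.15). Without the CT24, CT27, CT30 or CT33 pair, 1 was lower. crc, which encodes ATF4 itself, rose from a median of 593 FPKM (493 to 773) to 987 FPKM (827 to 1039) without overlap (log2 change 0.63 ± 0.07, adjusted P-value 5.55e-05). Nmdmc, an enzyme of mitochondrial folate metabolism (1.07), the asparagine synthetase AsnS (0.88) and P5cr-2, of proline synthesis (0.76), rose too.

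In the insulin and TOR list, 6 of 21 genes were higher, beside 22.4% of all loci, with a median near 0 (0.04). Thor, the 4E-BP that holds back cap-dependent translation, changed most. It climbed from 302 FPKM at CT24 to 1723 FPKM at CT45 (median 898) and lay between 1934 and 2980.5 FPKM in the second cycle (median 2738), with no overlap (log2 change 1.47 ± 0.19, adjusted P-value 0.000205). The third-day mean was 3152 FPKM. REPTOR (0.35), a transcription factor held inactive by TOR, its binding partner REPTOR-BP (0.50) and the insulin receptor InR (0.23) rose. ImpL2, a secreted antagonist of insulin signalling kept here in the ecdysone list, rose from 167 to 649 FPKM (median 345) to 791 to 1288 FPKM (median 997), also without overlap (log2 change 1.40 ± 0.15, adjusted P-value 5.88e-05).

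The protein synthesis machinery split by compartment and by role. Of 87 cytosolic ribosomal protein genes, 61 were higher and 3 lower (median 0.18, 1.13-fold), for example RpL5 (0.34). The 3 lower were RpLP0-like (−0.51), a protein related to the stalk protein of the ribosome, RpS19b (−0.49) and RpS15Ab (−0.38). The largest rise in the list, RpS5b (0.43), was of a low gene, with medians of 1.93 and 2.71 FPKM. The median pair difference of the list was highest at CT36 to CT60 (0.45) and near 0 at CT45 to CT69 (−0.01). Without the CT36 and CT60 pair, 57 genes were higher. As several ribosomal protein genes have near-identical copies or pseudogenes, the split of reads among them is uncertain.

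Ribosome production genes fell instead: 16 of 21 genes of ribosome biogenesis were lower and 0 higher (median −0.32). nop5 (−0.63), Nopp140 (−0.52), Nop56 (−0.51) and the helicase gene pit (−0.50), all acting in the nucleolus, each kept the cycles apart. nop5 went from a median of 221 FPKM (181 to 278) to 151 FPKM (105 to 167). Myc, the activator of this programme, did not pass the test (0.05). Mitochondrial ribosomal protein genes were lower in 32 of 72 cases and higher in 2 (median −0.15), with mRpL28 (0.60) and mRpL20 (−0.49) at the extremes. Without the CT36 and CT60 pair, 44 were lower.

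Aminoacyl-tRNA synthetase genes rose in 12 of 24 cases and fell in 5 (median 0.14), beside 22.4% and 27.2% of all loci. The share that fell was below that of all loci, as it was for the translation factors below. AsnRS rose from a median of 168 FPKM (130 to 224) to 305 FPKM (241 to 375), a log2 change of 0.86 ± 0.11 (adjusted P-value 0.000125), and IleRS (0.66) and ValRS (0.51) also rose without overlap. alpha-PheRS fell by 0.50. Of 47 translation factor genes, 22 were higher and 9 lower (median 0.09), with eEF1delta at the lower end and eIF2Bdelta (0.34) and eIF2Bgamma (0.33), subunits of the exchange factor that recycles eIF2, at the upper.

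Proteasome genes formed the most uniform list. Of 33 tested, 32 were lower and 0 higher, with a median of −0.38 (0.770-fold) and a median pair difference between −0.47 and −0.25 in each of the 8 pairs. Rpn9, Rpt5, Rpn13 and Prosbeta4 fell by 0.48, 0.46, 0.46 and 0.46, each without overlap between cycles. Rpn13, a ubiquitin receptor of the regulatory particle, stood at a median of 139 FPKM (128 to 166) and then 101 FPKM (90.5 to 117), with an adjusted P-value of 4.68e-06. The exception was Rpt3R (−0.04), a second copy of an ATPase subunit gene. When any 1 pair was left out, 32 genes were again called lower.

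Chaperones fell in most cases. Of 15 heat shock protein genes, 9 were lower and 1 higher (median −0.30). Hsp26 (−0.78), Hsp27 (−0.53), Hsp110 (−0.53), Hsp83, the fly Hsp90 (−0.50), and the constitutive Hsc70-4 (−0.20) fell. The locus that joins Hsp22 with CG4456 rose from a median of 26.2 FPKM (7.22 to 34.1) to 47.5 FPKM (26.7 to 64.6), in 7 of 8 pairs and with overlap (log2 change 1.08 ± 0.29, adjusted P-value 0.0114). In the endoplasmic reticulum, 13 of 22 genes were lower and 5 higher (median −0.14), beside 27.2% and 22.4% of all loci. The share that rose was thus near that of all loci. Subunits of the translocon fell (Sec61gamma −0.47, Sec61beta −0.43, Sec61alpha −0.40), while the oxidase gene Ero1L (0.51) and the stress sensors Ire1 (0.43) and Xbp1 (0.24) rose.

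In the DNA replication list, 26 of 32 were lower and 1 higher (median −0.26), with Orc2 (−0.51), Mcm7 (−0.47), Mcm3 (−0.46) and the ribonucleotide reductase subunit RnrL (−0.44) keeping the cycles apart. RnrL went from a median of 90.7 FPKM (77.5 to 106) to 67.6 FPKM (57.8 to 76.0), with an adjusted P-value of 5.65e-06. Of 34 genes of cyclins, cyclin-dependent kinases and mitosis, 18 were lower and 0 higher (median −0.11). Cdk1, the mitotic kinase, fell from a median of 74.9 FPKM (61.4 to 97.1) to 50.7 FPKM (41.6 to 55.6) without overlap (log2 change −0.58 ± 0.05, adjusted P-value 1.93e-05), and its activator stg (−0.44), Rbf (−0.32) and Cdk2 (−0.31) fell too. Only 5 histone loci passed the threshold after poly(A) selection. Of these His2Av fell by 0.29, and BigH1 (0.30), His4r (0.25) and His3.3B (0.17) rose (median 0.17).

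Autophagy genes rose in 13 of 22 cases and fell in 2 (median 0.15), among them Atg8a (0.50), the marker protein of autophagosomes, and Atg14 (0.35), Atg1 (0.29) and Atg17 (0.29), of the complexes that start them. Of 17 vacuolar ATPase genes, which acidify lysosomes, 8 were higher and 0 lower (median 0.08). Vha68-1 (0.50) and Vha100-2 (0.39) led them, and 5 were called without the CT24 and CT48 pair. Of 9 apoptosis genes, 5 were higher and 1 lower (median 0.15): the killer gene rpr (0.56) and the inhibitors Diap2 (0.29) and Diap1 (0.21) rose, and Dark fell by 0.17.

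Metal and lipid genes changed in part. Of 9 iron and copper genes, 5 were higher and 1 lower (median 0.13). The metallothionein MtnA ranged from 599 to 844 FPKM (median 669.6) and then from 789 to 3113 FPKM (median 1178), with overlap at CT48, and averaged 4259 FPKM on the third day (log2 change 0.96 ± 0.19, adjusted P-value 0.00189). The ferritin chains Fer1HCH (0.66) and Fer2LCH (0.59), which share 1 pair of locus bounds, rose, and the copper importer Ctr1A fell by 0.24. Of 14 lipid genes, 4 were higher and 1 lower (median 0.08), beside 22.4% and 27.2% of all loci. The former included the lipid droplet protein gene Lsd-1 (0.55), the desaturase locus Desat1 joined with vrs (0.40) and Fatp1 (0.26). The latter was mdy, of triacylglycerol synthesis (−0.42).

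Secreted and immune genes showed no common direction. Their counts stand beside 22.4% of all loci higher and 27.2% lower. Of 11 extracellular matrix genes, 5 were higher and 0 lower (median 0.09), but only 3 were higher without the CT39 and CT63 pair or without the CT42 and CT66 pair. Papilin, Ppn, rose from a median of 33.4 FPKM (26.1 to 39.3) to 55.3 FPKM (46.0 to 70.4) without overlap (log2 change 0.73 ± 0.03) and had the smallest adjusted P-value among the genes named here (2.21e-06). Among 9 antimicrobial peptide genes, Drs (0.74) rose and edin fell (median 0.00). In the Toll and Imd pathways, 5 of 19 were higher and 3 lower (median 0.03), such as PGRP-SD (0.45), the Imd inhibitor pirk (0.31), the locus of IKKbeta (0.30) and Dif (−0.26). Of 18 antioxidant and glutathione genes, 4 were higher and 8 lower (median −0.08). GstE9, GstE6 (0.60) and cnc (0.32), the fly Nrf2, rose, whereas Prx3 (−0.52) and GstD1 (−0.52) fell.

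In the ecdysone list, ImpL2 and Eip75B (0.12) rose and Eip74EF (−0.26) and Cth (−0.20) fell, out of 11 (median 0.02). In the JAK/STAT list, the inhibitor Socs36E rose by 0.33 and Stat92E (−0.41), Su(var)2-10 (−0.19) and hop (−0.14) fell, out of 8 (median 0.05). Of 4 imaginal disc growth factor genes, Idgf1 rose by 0.22 and Idgf3 fell by 0.15 (median 0.00). Of 6 dosage compensation genes, msl-1 fell by 0.20 and no other passed (median −0.05). These counts, too, stand beside 22.4% of all loci higher and 27.2% lower.

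The clock list held 16 loci, of which 4 were higher and 6 lower (median −0.05), beside 22.4% and 27.2% of all loci. The core genes Clk, per, tim and cry stayed at or below 0.171 FPKM and were not members. vri, the repressor of Clk transcription, ranged from 1.35 to 2.09 FPKM in the first cycle (median 1.62) and from 2.06 to 4.01 FPKM in the second (median 3.05). The ranges overlapped at CT48 only, and vri was higher in 8 of 8 pairs (log2 change 0.61 ± 0.06, adjusted P-value 3.7e-05). cyc (0.10, adjusted P-value 0.0363), Pdp1 (0.19, adjusted P-value 0.0401) and the kinase gene nmo (0.12) also passed, and cwo did not (0.02, adjusted P-value 0.777). When 1 pair was left out, between 1 and 3 of the 4 rises were called.

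The 6 clock list genes that fell were of kinase, phosphatase and ubiquitin ligase subunits. The casein kinase subunits CkIIalpha (−0.23) and CkIIbeta (−0.16), the phosphatase subunits tws (−0.22) and wdb (−0.23), and the ubiquitin ligase components slmb (−0.19) and Cul3 (−0.14) each fell past the threshold. CkIIalpha kept the cycles apart, at 197 to 212 FPKM and 160.2 to 186 FPKM. mts, the catalytic subunit of the phosphatase, did not pass (−0.07, adjusted P-value 0.0618), nor did the kinase genes dco (−0.05) and sgg (0.14, at a locus joined with lncRNA:CR45197), the F-box gene jet (−0.01) or ctrip (−0.04, joined with Hus1-like).

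Direction varied with abundance. When loci were divided into 4 equal classes by mean level, in the lowest (1.07 to 12.0 FPKM), 28.5% were higher and 13.7% lower, and in the highest (65.6 to 32413 FPKM) 21.1% were higher and 38.2% lower. The arms 2L, 2R, 3L, 3R and X had between 21.3% and 23.8% of loci higher, while 18 of 55 loci on chromosome 4 were higher and 7 lower. Of 97 loci that held only a lncRNA, 43 were higher and 4 lower (median 0.22). Loci with only a snoRNA were imprecise, with a median SE of 0.25 and 3 of 52 higher and 6 lower.

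Repetition was read from the shape of each profile. A single straight line over the 16 libraries was subtracted from each locus, and the 8 remaining values of the first cycle were set against the 8 of the second. A limma F-test asked whether the hours differed by more than the paired values at the same hour. No locus passed it: 0 of 6949 (0%) had an adjusted P-value under 0.05, and the smallest was 1. A P-value that misses the threshold does not show that a shape failed to repeat. At an unadjusted P-value under 0.05, 109 loci (1.57%) were left, 17 of them under 0.01. That share is smaller than the share of 0.05 that this threshold passes by chance alone. A cosine with a period of 24 h, chosen after seeing the data, uses fewer coefficients and called 3 loci. They were Hsp23, Hsp26 and Hsp27 (adjusted P-values 0.0158, 0.040 and 0.040). With the cosine 434 loci (6.25%) had an unadjusted P-value under 0.05, a share close to that of chance. The repeated part was small at the typical locus: the mean profile of both cycles had a median SD over hours of 0.05 and a median range of 0.16 on the log2 scale.

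The correlation r between the 8 detrended values of the first and of the second cycle was computed per locus as a description. Its median was −0.20 (quartiles −0.48 and 0.09), and 31.5% of loci had r above 0. The points share libraries across loci, so the loci are not independent. Only 83 loci reached r of 0.7, against 584 at −0.7 or below. The balance turned round without detrending, where the median was 0.08, 56.8% of loci had r above 0, and 576 reached 0.7 against 244 at −0.7 or below. With a line of its own for each cycle the median was −0.08, 43.7% of loci had r above 0, and the counts were 225 and 423. The median r was no higher at 24 h than at other spacings, being −0.16 when the second window began 27 h after the first, 0.07 at 30 h, −0.02 at 33 h and 0.04 at 36 h.

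After subtraction of 1 line over both cycles, libraries 24 h apart did not resemble each other across loci. Correlations between libraries were computed with this detrending only, and the median r per locus moved with the detrending. The correlation over the 6949 detrended values was above 0 for 3 of the 8 same-hour pairs, between −0.35 and 0.09 (median −0.20). The highest value of any pair was 0.51, for CT30 with CT60, and the lowest −0.51, for CT30 with CT51. The sign changed within the second cycle: libraries CT24 to CT30 correlated below 0 with CT48 and CT51 in 6 of 6 cases (median −0.35) and above 0 with CT54 to CT63 in 11 of 12, while libraries CT42 and CT45 correlated above 0 with CT48 and CT51 in 4 of 4 cases (median 0.35) and with CT54 to CT63 in 0 of 8 (median −0.30). CT69 again resembled CT48 and CT51 in part, with correlations of −0.24 with CT30, 0.25 with CT33, 0.27 with CT36 and 0.20 with CT42.

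**Figure D4:**
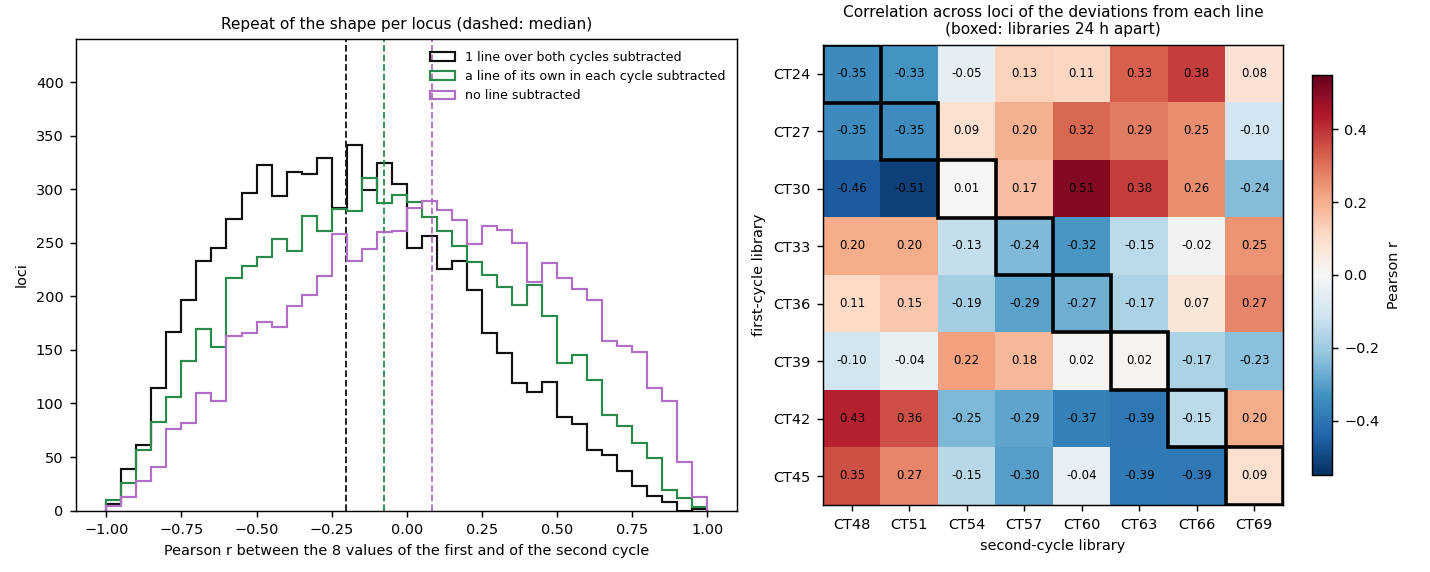
Left, number of loci by correlation r between cycles with 1 line over both cycles, a line in each cycle or no line subtracted (dashed lines, medians); right, Pearson correlation across 6949 loci between each first-cycle and each second-cycle library on detrended log2(FPKM + 1), with same-hour pairs boxed. With 1 line the histogram is centred below 0 (median −0.20), and the boxed pairs range from −0.35 to 0.09, with blocks that change sign between CT51 and CT54.

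Loci are named here by the smallest P-values of this test among those with a mean of at least 5 FPKM, 4 of which were heat shock genes. Hsp23 stood at 48.8, 46.1, 18.8, 10.6, 9.65, 16.4, 28.9 and 23.2 FPKM from CT24 to CT45 and at 24.7, 11.5, 8.81, 6.58, 5.28, 5.05, 18.0 and 20.6 FPKM from CT48 to CT69. In both cycles it was low in the middle hours and high at the ends, with its mean trough at 12 h and a range of 1.81 on the log2 scale (r 0.78, unadjusted P-value 0.000521, the smallest of all members). On the third day it did not fall again over these hours but stood at 40.2, 59.8, 81.9 and 98.6 FPKM from CT72 to CT81.

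Hsp26 stood at 139, 127, 56.2, 26.5, 23.3, 57.8, 96.2 and 71.5 FPKM in the first cycle and at 72.6, 43.8, 34.2, 30.9, 20.2, 19.2, 43.7 and 52.9 FPKM in the second (r 0.72, range 1.78). Hsp27, lower in level, ran from 20.0 to 3.83 FPKM (trough at CT36) and from 9.13 to 3.30 FPKM (trough at CT60), with r 0.78 and a range of 1.46. Hsp68, an inducible Hsp70 family member, ran from 24.6 to 8.35 FPKM and from 17.1 to 9.90 FPKM, with r 0.84 and a range of 0.92. The mean profile of each of these 4 genes was lowest at 12 h, although Hsp68 was lowest at CT54 in the second cycle, and all rose from CT72 to CT75. Hsp23, Hsp26 and Hsp27 lie close together on arm 3L (dm3, chr3L:9369518-9378794 from the start of Hsp26 to the end of Hsp27), next to the Hsp22 locus, which did not share their shape (r −0.65). Hsp68 lies on 3R. Their unadjusted P-values were 0.00266, 0.00112 and 0.00343 for Hsp26, Hsp27 and Hsp68.

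**Figure D5:**
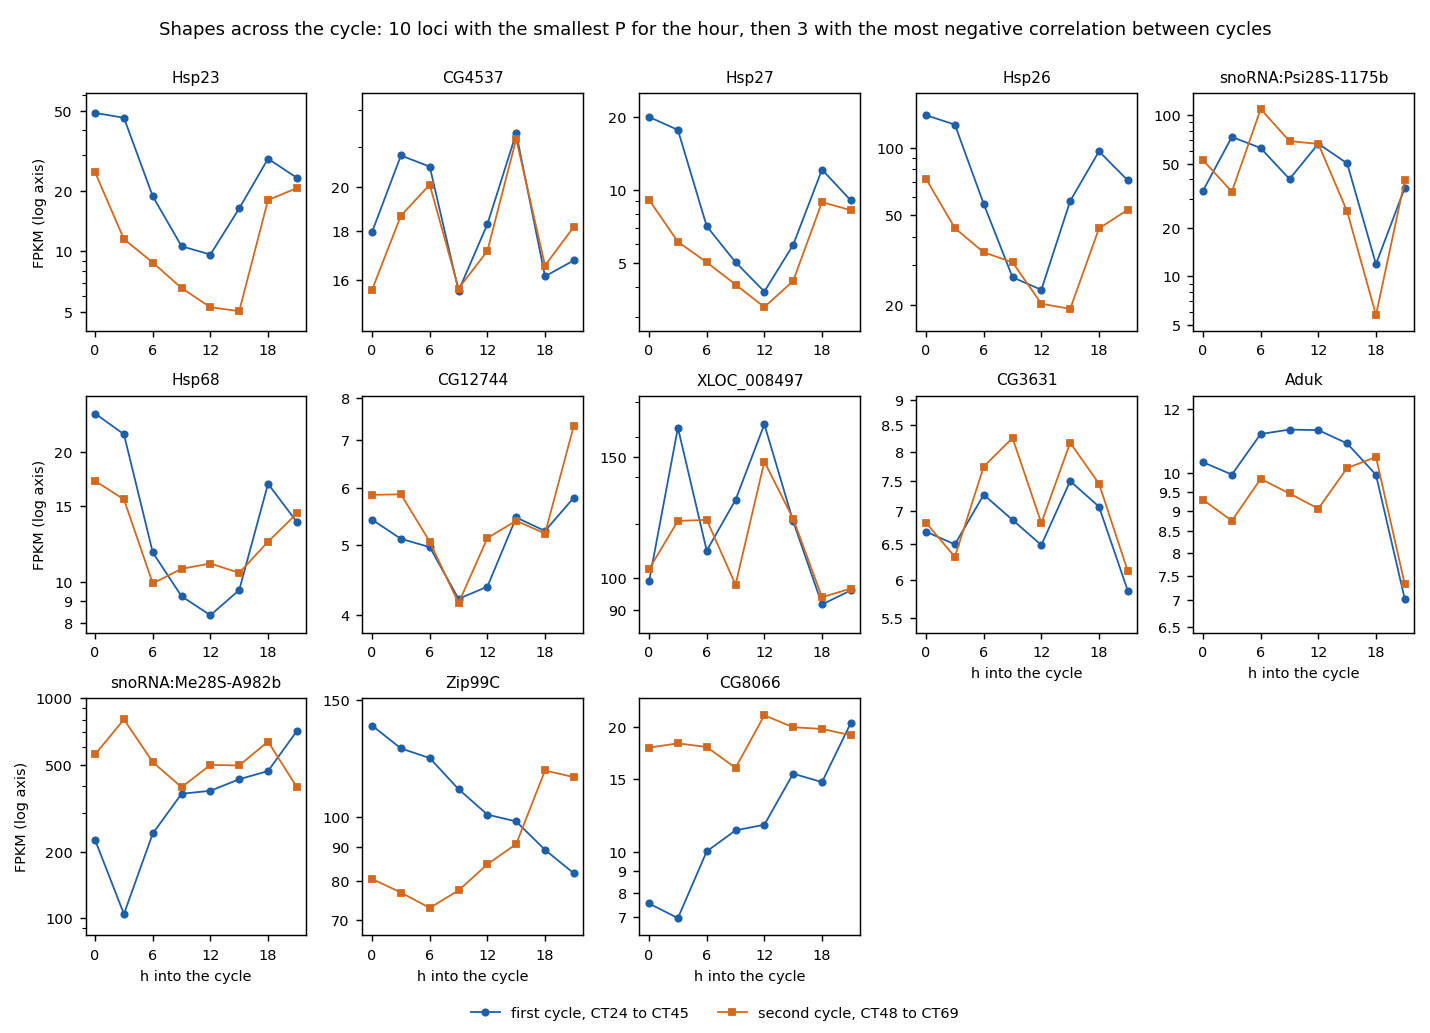
FPKM (log axis) by hour of the cycle for the 10 loci with the smallest P-values of the test of repeated shape and a mean of at least 5 FPKM, and the 3 with the most negative r, 1 line per cycle and 1 point per library. Hsp23, Hsp26 and Hsp27 are lowest at 12 h or 15 h in both cycles and Hsp68 at 12 h and then 6 h, whereas the Zip99C lines cross, from 137 to 82.2 FPKM and from 80.6 to 115 FPKM.

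The remaining loci named by this rule were of other kinds and, except for a snoRNA, smaller in range. CG4537 stayed between 15.6 and 22.7 FPKM in both cycles, with a paired change of −0.05 that did not pass, a mean peak at 15 h and a trough at 9 h (r 0.83, range 0.52). CG3631 (r 0.86), CG12744 (r 0.82), Aduk, a kinase gene related to Atg1 (r 0.73), snoRNA:Psi28S-1175b (r 0.72) and an unannotated locus at chr3L:9421895-9422921 (r 0.73) completed the 10 loci of at least 5 FPKM. Their peaks did not fall at a common hour. The snoRNA ranged from 5.77 to 109 FPKM, the widest of them (range 2.93).

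The opposite pattern was led by snoRNA:Me28S-A982b (r −0.92), Zip99C (r −0.91) and CG8066 (r −0.83), the lowest r among loci with ample variation. Zip99C, an iron and zinc transporter, declined without a break from 137 FPKM at CT24 to 82.2 FPKM at CT45, continued to 72.9 FPKM at CT54 and then rose to 117 FPKM at CT66. Its paired change (−0.28, adjusted P-value 0.149) did not pass. The pair differences ran from −0.76 at CT24 to CT48 to 0.48 at CT45 to CT69. Without the CT45 and CT69 pair the change was −0.38 and was called.

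Lists differed in how their members repeated. Cytosolic ribosomal protein genes had a median r of −0.69, and 4 of 87 were above 0. With a line of its own in each cycle the median was −0.75, and without detrending it was 0.13. Glycolysis genes had a median r of −0.19 with a single line, with 1 of 11 above 0, but 0.58 with a line in each cycle, with 11 of 11 above 0. Glycogen and trehalose genes likewise had −0.30 and 0.34. Among clock genes, r was 0.13 for cyc, 0.22 for vri, 0.23 for Pdp1, −0.19 for cwo and 0.58 for mts, the last with a range of 0.09 on the log2 scale. Of 15 heat shock genes, 4 had an unadjusted P-value under 0.05 in the test of repeated shape, beside 1.57% of all loci.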

How the data were processed

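Single-end poly(A) RNA-Seq reads were aligned by the authors to the dm3 build with TopHat2, assembled with Cufflinks tools on RefSeq genes, and the deposited FPKM values are those scaled between libraries by Cuffnorm. FPKM keep no read number, so no counting error is given, and no count test was used. The sample labels and the study's methods name different library kits.

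Columns were matched to the labels by CT. Symbols were found through RefSeq accessions for 99.6% of the loci tested, and 385 of these join several genes. Values were analysed as log2(FPKM + 1), a scale that understates changes of low loci, with limma 3.58.1 in R 4.3.3: cycle plus hour as a factor for the paired change, and an F-test of hour with 7 residual degrees of freedom for the repeated shape. P-values are two-sided and Benjamini-Hochberg adjusted over 6949 loci. Relative depth came from the commonest ratio between the values of CT24 and of each other library over 3077 loci with few reads. That commonest ratio held between 13.0% (CT48) and 18.6% (CT54) of the ratios. Scripts were tested on simulated data.

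Named genes were the 10 largest rises and falls (called, 8 pairs in 1 direction, mean of at least 5 FPKM), the 10 smallest P-values of repeated shape and the 3 lowest r among the 5% most variable loci (both with a mean of at least 5 FPKM), up to 4 members per list with the largest change, and cwo, cyc, Pdp1, vri, Ldh, Eno, Gapdh2 and mts. Further list members were named after their values were seen. The members and gene lists were chosen with earlier results of these data known. Pseudocount, filters, scaling, block, test, detrending, window and leaving out each pair were varied. No dm3 sequence was used here. A result for 1 gene of the insulin and TOR list is not reported here.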

Additional observations from a re-analysis of the deposited data

Results flagged for a closer look

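In each of 5 named loci, 1 pair stood apart from the other 7 by Dixon's test, which chance alone passes in about 1 in 20 groups, and 173 loci were examined. At the locus of mir-4971 and msl-2 the pair CT27 to CT51 had a log2 change of −2.33, because the locus stood at 91.4 FPKM at CT27 and between 15.8 and 18.8 FPKM in the other first-cycle libraries. Without that pair its change was 0.43. In the pair CT36 to CT60, Rpe (0.67), His4r (0.57) and the locus of srp and lncRNA:CR44133 (−0.24) stood apart. For pirk the pair CT24 to CT48 (−0.13) was the only one below 0.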

How the results depend on the processing

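The number of loci called higher or lower stayed within 1.5 times of the reported one in each setting tried. It was 1546 and 1879 with a pseudocount of 0.1, 1614 and 1947 with no replicate block, 1627 and 1875 with a filter on the mean, and 1253 and 1578 in an exact sign-flip permutation test, whose smallest P-value is 0.0078. Rescaling by the median of ratios gave 1723 and 1706, so that 50.2% of calls were higher in place of 45.1%, after a shift of the median of 0.02. Leaving out each pair gave 1363 to 1546 higher, 1661 to 1922 lower and a median r of −0.277 to −0.126, with 0 repeated shapes. The pairing is that of the design, by hour, and 5 of 8 same-hour correlations lay below −0.1 after subtraction of 1 line over both cycles. The median r changed sign with no detrending (0.084) and with the second window 30 h (0.073) or 36 h (0.035) after the first, and moved to −0.016 at 33 h and −0.077 with a line in each cycle. The cause was not tested. Repeated shapes numbered 3 with the cosine and 1 with no filter on low values, an unannotated locus at 0 to 5.79 FPKM (adjusted P-value 0.0474).

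Counts in lists moved more. In the sign-flip test 5 of 11 glycolysis genes were higher, and 14 oxidative phosphorylation, 17 mitochondrial ribosomal protein and 3 TCA cycle genes were lower. Of 2422 results for the 173 named loci, 2338 kept their call, 72 lost it, 12 gained it and 0 changed direction. Calls of Eno, Gapdh2, cyc, Pdp1, elav, Eip75B, hop and Aduk were lost in several settings, that of Sirup with no filter, those of CG4456/Hsp22, Drs, InR, Dark, Hsp26, Fum1/Fum2, RpS5b and BigH1 in the sign-flip test, and those of Hsp26 and Hsp27 with no replicate block.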
